A study of Mus musculus with 12 samples.

Results

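The interaction of genotype and dextran sulphate sodium (DSS) asks, gene by gene, whether the change that DSS brings to the colonic epithelium differs between mice with and without Nfkb2. It was taken as the log2 change under DSS in the knockout minus the log2 change under DSS in WT, so a positive value means that the change was more positive in the knockout. All 12 samples of the 12 in the series enter it, as 4 groups of 3: untreated WT, DSS-treated WT, untreated Nfkb2-/- (the knockout) and DSS-treated Nfkb2-/-. Every mouse was C57BL/6, aged 7 to 9 weeks, and DSS was given for 48 h. The material was colonic intestinal epithelial cells, detached from opened colons with EDTA and described by the submitters as mostly CD45.2-EpCAM+. The knockout is described by genotype alone, with no cell type named, and RNA was sequenced from the epithelial preparation as a bulk.

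Nfkb2 encodes p100, the precursor of the NF-kB subunit p52. In the noncanonical pathway p100 is processed to p52, and unprocessed p100 also holds other NF-kB subunits, RelA among them, in the cytoplasm. DSS injures the colonic epithelium from the lumen, and in this tissue NF-kB target genes, interferon-stimulated genes and mucus genes are among the transcripts known to move with injury and with the microbiota. The question in the study's title is whether Nfkb2 in the epithelium adds to the canonical NF-kB response during colitis, and the interaction is the contrast that compares the response in the 2 genotypes.

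Libraries held 5595909 to 8117740 counts, and 12522 genes passed the filter on low counts; a count of 3, taken as the detection floor, was worth 0.356 to 0.53 CPM (a gene's count relative to the size of its library after edgeR's scaling). Nfkb2 (ENSMUSG00000025225.13, chr19:46304320-46312385, plus strand; coordinates here and below follow the GENCODE annotation of GRCm38) was measured at 30.8, 36.1 and 43.7 CPM in untreated WT and 41.6, 46.1 and 39.6 in DSS-treated WT. Nfkb2 stood at 11.7, 17.5 and 13.9 in untreated and 19.6, 15.6 and 17.2 in DSS-treated knockout. All 6 knockout libraries lay below all 6 WT libraries, and counts remained in the knockout; which exons the allele lacks is not given in the sources used here. Epithelial markers were abundant throughout, with the sum of 8 colonocyte markers, Epcam and Krt8 among them, at 17915 to 29019 CPM. The sum of 17 leukocyte markers, 11 of which passed the filter, was 21.8 to 32.8 CPM in untreated WT, 62.5 to 65.1 in DSS-treated WT, 63.8 to 86.1 in untreated knockout and 103 to 148 in DSS-treated knockout. No leukocyte marker was at 0 in every library, and Pdgfra, Kdr and Sox10, markers of fibroblasts, endothelium and glia, were. In bulk RNA, fewer cells of a type and less RNA per cell cannot be told apart. WT libraries carry the lower library numbers and knockout libraries the higher ones, so genotype and order of handling cannot be told apart, while untreated and DSS libraries alternate. Of the 12 libraries, leaving out untreated WT replicate 3 moved the number of interaction calls most, and that count is given with and without it.

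The change under DSS differed between genotypes in 213 genes, 1.7% of the 12522 tested, by edgeR's quasi-likelihood F test (two-sided, Benjamini-Hochberg adjusted p under 0.05). The interaction was positive in 147 (1.17%) and negative in 66 (0.527%). DSS changed 789 genes in WT (6.3%), 351 upward (2.8%) and 438 downward (3.5%). In the knockout it changed 491 genes (3.92%), 235 upward (1.88%) and 256 downward (2.04%). Among the 213, DSS passed in WT and not in the knockout for 95 genes (0.759% of all tested), of which 42 rose and 53 fell. It passed in the knockout and not in WT for 50 genes (0.399%), of which 40 rose and 10 fell. For 27 genes (0.216%) it passed in both genotypes with opposite signs, and 26 of these fell in WT and rose in the knockout. For 36 genes (0.287%) it passed in both with the same sign, 15 upward and 21 downward, and for 5 genes (0.0399%) it passed in neither. Without untreated WT replicate 3 the interaction passed in 350 genes, 230 positive and 120 negative, and 208 of the 213 were among them. The split into classes rests on the DSS calls of each genotype. With each genotype fitted on its own 6 libraries, DSS passed in 453 genes in WT and 580 in the knockout, which turns the order of those counts, and the WT and knockout classes held 76 and 67 genes. With the leukocyte marker covariate the interaction passed in 142 genes, 123 of them among the 213, but 111 of the 142 had neither DSS change called, 21 were called in WT, 4 in the knockout, 6 in both with equal sign and 0 in both with unequal sign. The covariate, the mean log2 level of the leukocyte markers, was 0.3474 to 0.8986 in untreated and 2.073 to 2.204 in DSS-treated WT. In the knockout it was 1.812 to 2.089 untreated and 2.665 to 3.231 under DSS. It followed DSS in both genotypes, so calls lost with it, here and below, cannot separate leukocyte content from DSS.

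**Figure D1:**
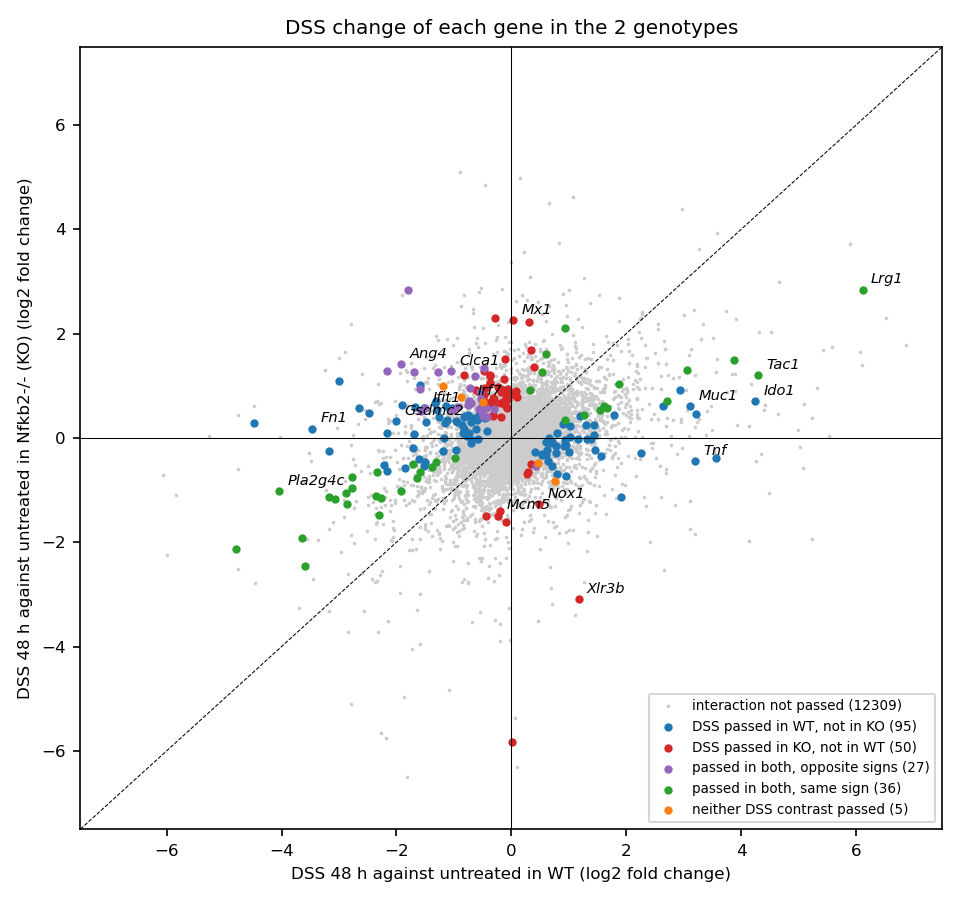
Log2 fold change under DSS in WT (x axis) and in the knockout (y axis), 1 point per gene tested, coloured by response class among the 213 genes whose interaction passed. The dashed line marks equal change; purple points, opposite in sign, lie almost all to the upper left, where genes fell in WT and rose in the knockout.

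The same classes can be read from the levels in the 4 groups, which the contrasts themselves fix and which are given as description. The genotypes differed before DSS in 436 genes (3.48%), 215 higher in the knockout (1.72%) and 221 lower (1.76%). Under DSS they differed in 390 genes (3.11%), 222 higher (1.77%) and 168 lower (1.34%). Of the 53 genes that fell under DSS in WT and were not called in the knockout, 36 were already lower in untreated knockout than in untreated WT, with a median difference of -0.79 on the log2 scale. Of the 42 that rose in WT and were not called in the knockout, 26 were already higher in untreated knockout, and 14 were lower in the knockout under DSS. The 26 genes with falls in WT and rises in the knockout mostly separated under DSS: 24 were higher in DSS-treated knockout than in DSS-treated WT, with 16 lower in the knockout when untreated. Of the 40 that rose in the knockout and were not called in WT, 29 were higher in the knockout under DSS and 11 lower when untreated.

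**Figure D2:**
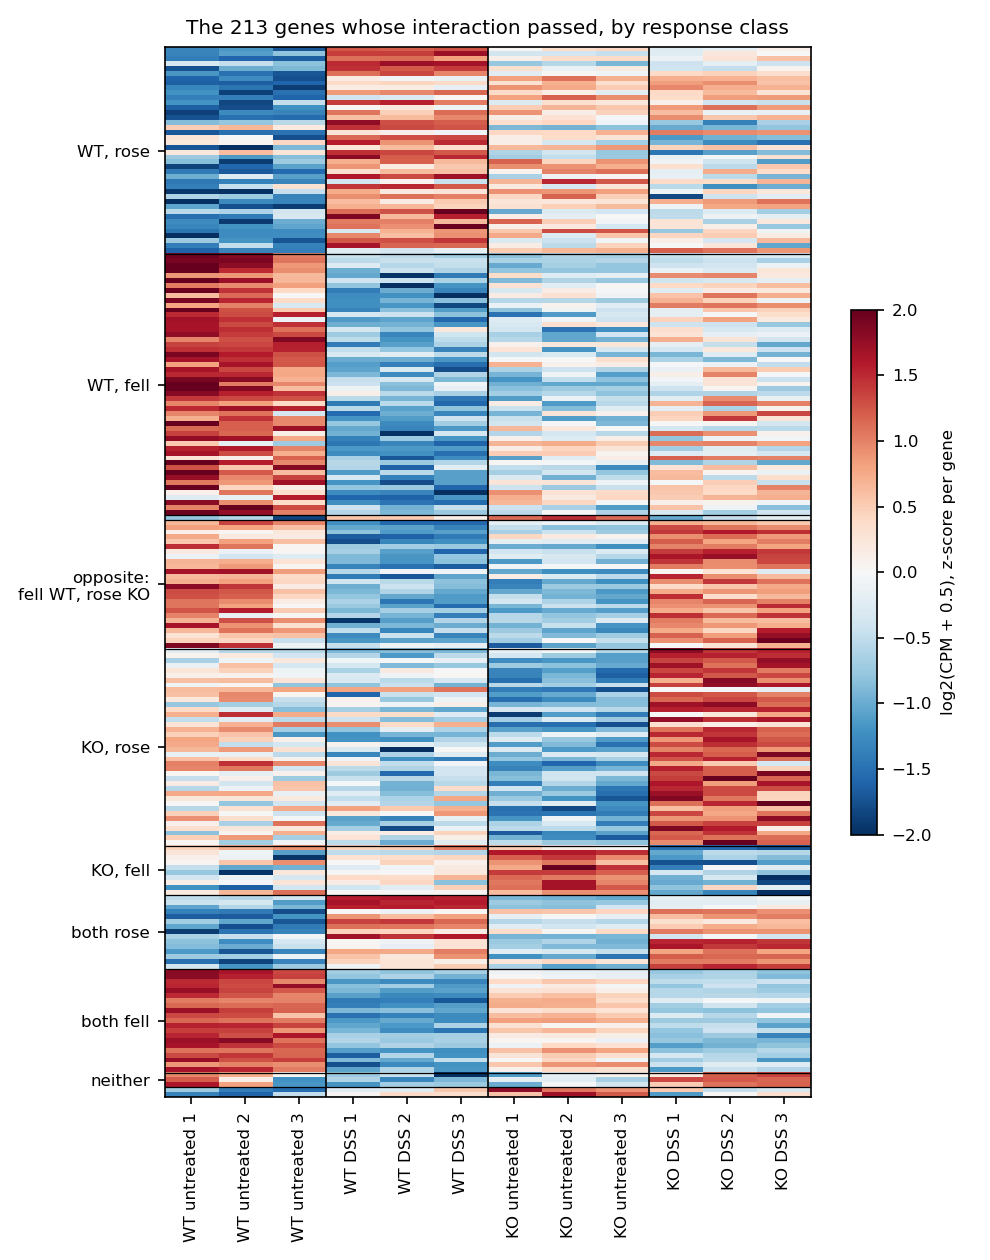
Level of each of the 213 genes (rows) in each of the 12 libraries (columns), as the z-score of log2(CPM + 0.5) for that gene, rows ordered by response class. Untreated WT had the group mean farthest from the mean of the other groups for 36 of the 53 genes that fell in WT and were not called in the knockout. DSS-treated knockout did for 28 of the 40 that rose in the knockout and were not called in WT. Overlap of single libraries was not part of these counts.

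Type I interferon-stimulated genes, the antiviral set induced by type I interferon signalling, made up 16 of the 27 opposite responses. Of 55 listed, 53 were tested, and 34 had a positive interaction and 0 a negative one, beside the 1.17% and 0.527% of all genes. Another 19 did not pass. The median interaction was 1.05 on the log2 scale, beside -0.01 over all genes. In WT, 20 members fell under DSS and 1 (Dtx3l, named after its value was seen) rose, with a median of -0.37. In the knockout 35 rose and 0 fell, with a median of 0.68. Over all genes, 3.5% fell and 2.8% rose in WT, and 1.88% rose and 2.04% fell in the knockout. By class, 16 members changed in opposite directions, 16 changed in the knockout and were not called in WT, 1 changed in WT and was not called in the knockout, and 1 passed the interaction with neither DSS contrast. The count of positive interactions was 27 to 41 over the alternatives tried, and the negative count was 0 in each. With the leukocyte marker covariate, a fit that holds the mean log2 level of the leukocyte markers constant, 30 members had a positive interaction, while the falls in WT went from 20 to 0 and the rises in the knockout from 35 to 3. Because the covariate itself rose with DSS in both genotypes, these losses cannot separate leukocyte content from DSS. With each genotype fitted on its own 6 libraries, 10 members fell in WT and 34 rose in the knockout. The members of this list and of those below were chosen with earlier results of these data known. Their shares beside those of all genes are therefore description and not a test.

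**Figure D3:**
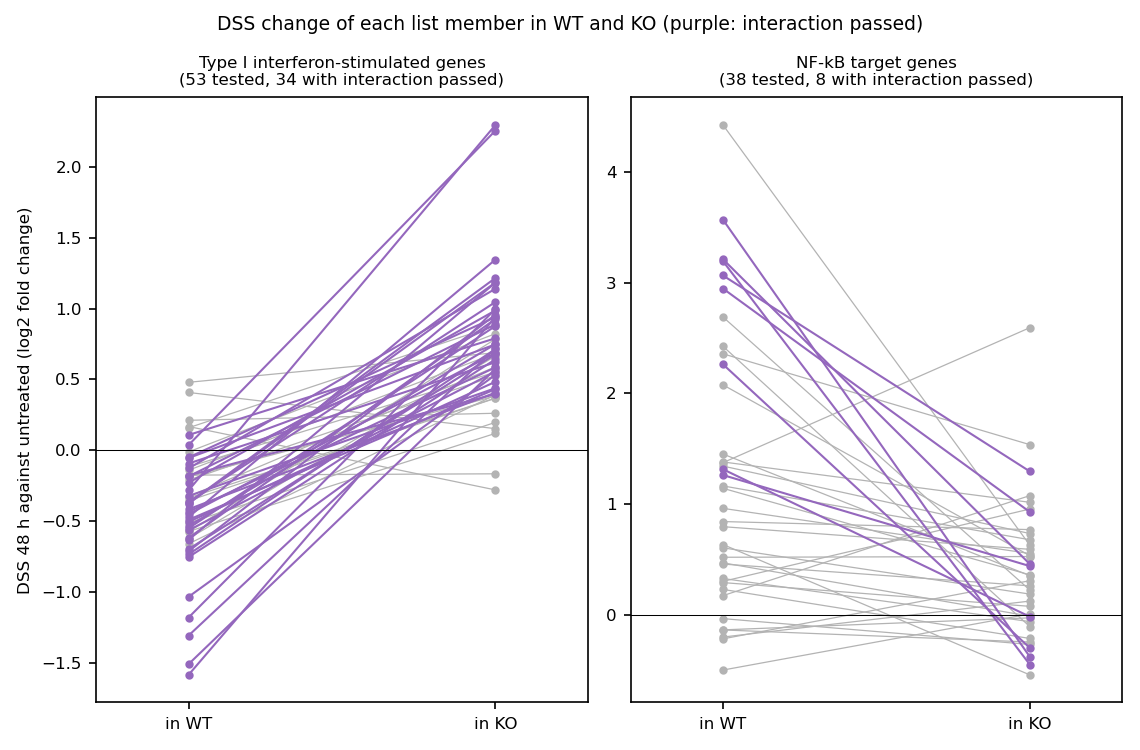
Log2 fold change under DSS of each type I interferon-stimulated gene (left, 53 tested) and each NF-kB target gene (right, 38 tested), joined between WT and knockout; purple lines are genes whose interaction passed. The 34 purple lines on the left all climb from WT to knockout, and the 8 on the right all descend.

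Irf7 (ENSMUSG00000025498.13, chr7:141262706-141266481, minus strand), the transcription factor that amplifies type I interferon, was measured at 678, 672 and 634 CPM in untreated WT and 410.5, 405 and 377 in DSS-treated WT. Irf7 stood at 475, 432 and 434 in untreated and 776, 726 and 699.7 in DSS-treated knockout. Untreated WT and DSS-treated knockout were both high, the other groups low, and no group overlapped with its untreated or treated partner. This gave a log2 change under DSS of -0.73 ± 0.08 (SE) in WT (adjusted p = 5.31e-05) and 0.71 ± 0.08 in the knockout (adjusted p = 0.000226). The interaction of Irf7 was 1.45 ± 0.12 (adjusted p = 1.95e-05). Reads in exons that Irf7 shares with its neighbour Phrf1 cannot be told apart without strand. Stat2, the STAT partner in the interferon-activated complex, was measured at 179.9, 179 and 172 CPM in untreated WT and 164, 172 and 177 in DSS-treated WT. Stat2 stood at 126, 140.2 and 118 in untreated and 256, 238 and 243 in DSS-treated knockout. WT libraries with and without DSS overlapped, whereas the DSS-treated knockout lay above all others. Its interaction was 0.99 ± 0.14 (SE, adjusted p = 0.00094), with changes of -0.05 in WT and 0.94 in the knockout. Usp18, the protease that removes ISG15 and dampens interferon receptor signalling, had changes of -0.38 in WT and 1.18 in the knockout and an interaction of 1.56 ± 0.19 (SE, adjusted p = 0.000363).

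Among the antiviral effectors, Ifit1 (ENSMUSG00000034459.8, chr19:34640871-34650009, plus strand), which binds foreign RNA caps, was measured at 236, 173 and 172 CPM in untreated WT and 65, 65.6 and 73.7 in DSS-treated WT. Ifit1 stood at 197, 174 and 164 in untreated and 260.1, 288 and 249 in DSS-treated knockout. The untreated groups of the 2 genotypes overlapped, and under DSS every WT library fell below and every knockout library rose above them. The test gave a log2 change under DSS of -1.51 ± 0.14 (SE) in WT (adjusted p = 5.43e-06) and 0.57 ± 0.13 in the knockout (adjusted p = 0.0232). The interaction of Ifit1 was 2.08 ± 0.19 (adjusted p = 4.52e-05). Rsad2, which encodes the antiviral enzyme viperin, was measured at 42, 48.7 and 43.4 CPM in untreated WT and 12.3, 15.9 and 16.5 in DSS-treated WT. Rsad2 stood at 28.8, 27.8 and 27.6 in untreated and 59.6, 47.9 and 54.2 in DSS-treated knockout. It was lowest in DSS-treated WT, and DSS-treated knockout overlapped with untreated WT at the high end; untreated and treated libraries did not overlap in either genotype. Its interaction was 2.53 ± 0.23 (SE, adjusted p = 4.52e-05), from changes of -1.59 in WT and 0.94 in the knockout. Slfn4, a schlafen family member, had changes of -1.57 in WT and 0.53 in the knockout and the smallest interaction p of all genes tested (2.09 ± 0.15 (SE, adjusted p = 1.43e-05)). Cmpk2, a mitochondrial nucleotide kinase, changed by -0.63 in WT and 1.18 in the knockout, and Ifit3 by -0.47 in WT and 1.35 in the knockout. Of the 50-base words (stretches of exon sequence) of Ifit3, 51.2% also occur in Ifit3b or other genes, and of Slfn4's 10.8%, so the split of reads between such copies is uncertain.

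A further group rose in the knockout and was not called in WT. Mx1 (ENSMUSG00000000386.13, chr16:97447035-97462907, minus strand), an interferon-induced dynamin-like GTPase, was measured at 22.3, 31.3 and 37.4 CPM in untreated WT and 31.3, 32.1 and 29.8 in DSS-treated WT. Mx1 stood at 15.6, 16.4 and 17.1 in untreated and 73.2, 68.1 and 93.4 in DSS-treated knockout. The 6 WT libraries overlapped, untreated knockout was below them with no overlap, and DSS-treated knockout was above every other library. The change was 0.04 ± 0.19 (SE) in WT (adjusted p = 0.961) and 2.26 ± 0.20 in the knockout (adjusted p = 2.09e-05), and the interaction 2.22 ± 0.27 (adjusted p = 0.000405). Mx2 went from 6.5 ± 0.931 CPM to 32 ± 3.8 (SD, n = 3) in the knockout, and its interaction was 2.58 ± 0.33 (SE, adjusted p = 0.000578). Ifit2, another RNA-binding effector, had an interaction of 1.22 ± 0.14 (SE, adjusted p = 0.000316) and changes of -0.23 in WT and 0.99 in the knockout. Oas2, a 2'-5'-oligoadenylate synthetase that activates RNase L, had an interaction of 1.59 ± 0.20 (SE, adjusted p = 0.000537) and changes of -0.37 in WT and 1.22 in the knockout. Each of the 12 interferon-stimulated genes named with values in these paragraphs passed the interaction with each of the 12 libraries left out in turn and with the leukocyte marker covariate.

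Promoters of 3 of these genes are shown so that the interferon element can be seen in the sequence of genes with opposite responses. Promoter sequence was taken from RefSeq on GRCm38.p6, as 250 bases before to 50 after each annotated start, and was searched on both strands for GAAANNGAA, the core of the interferon-stimulated response element. Of the 53 tested interferon-stimulated genes, 39 had a promoter in the table, and 21 of these (53.8%) held the core, beside 8.56% of all 32851 promoters of that length and 9.76% of the 27025 genes they belong to. By response class, 11 of 21 matched genes that fell in WT and rose in the knockout held it, and 12 of 29 that rose in the knockout and were not called in WT. In the classes that changed in WT and were not called in the knockout, 2 of 27 genes that rose and 11 of 42 that fell did. Among genes that changed in both genotypes with the same sign, 5 of 10 that rose and 5 of 18 that fell held the core. None (0 of 7) that fell in the knockout and were not called in WT did. The core was thus not particular to the opposite class, which shares 16 of its 27 genes with the interferon list. The 150 bases before the start of Ifit1 (chr19:34640739-34640888, plus strand), Rsad2 (chr12:26456453-26456602, minus strand) and Ifit3 (chr19:34583379-34583528, plus strand) follow, 5′ to 3′ on the gene's strand, in capitals where the core or its reverse complement matches.
Ifit1: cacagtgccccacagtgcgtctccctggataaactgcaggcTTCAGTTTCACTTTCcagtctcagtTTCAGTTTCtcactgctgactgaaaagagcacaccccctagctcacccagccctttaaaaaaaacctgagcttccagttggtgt
Rsad2: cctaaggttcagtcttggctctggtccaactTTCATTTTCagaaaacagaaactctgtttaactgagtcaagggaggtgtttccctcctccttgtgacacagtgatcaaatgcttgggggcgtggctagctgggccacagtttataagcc
Ifit3: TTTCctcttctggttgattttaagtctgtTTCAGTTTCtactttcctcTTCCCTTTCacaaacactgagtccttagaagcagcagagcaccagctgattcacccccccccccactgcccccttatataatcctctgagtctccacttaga
The matches in Ifit1 overlap into one longer run next to a separate match, Rsad2 holds a single one, the first capitals of Ifit3 are the end of a match that begins upstream, and Irf7 and Cmpk2 held none in their windows. A match is a description of letters and not a binding site.

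Interferon-gamma-inducible genes, among them the guanylate-binding and immunity-related GTPases that attack intracellular vacuoles, mostly rose in both genotypes. Of 33 tested, 22 rose in WT (66.7%) and 23 in the knockout (69.7%), beside 2.8% and 1.88% of all genes. There were 0 falls in either genotype, and the medians were 0.76 and 1.26. The interaction was positive in 5 and negative in 4 (27.3% in all, beside 1.7% of all genes), counts that ran from 0 to 7 and from 1 to 4 over the alternatives. The median interaction of 0.35 was 0.02 without untreated WT replicate 3. Gbp3 rose by 0.61 in WT and 1.61 in the knockout, with an interaction of 1.00 ± 0.20 (SE, adjusted p = 0.0158). Gm12250, an immunity-related GTPase gene that the annotation used here lists as a processed pseudogene, rose by 1.36 in the knockout, and its interaction was 0.97 ± 0.16 (SE, adjusted p = 0.0057). The 4 with a negative interaction were Ido1, given below, Ubd, Wars and Gbp2, the last named after its value was seen. Ubd, a ubiquitin-like modifier, was measured at 4.81, 4.76 and 3.86 CPM in untreated WT and 11.2, 12.3 and 16.3 in DSS-treated WT. Ubd stood at 31, 42.6 and 34.2 in untreated and 21.4, 31.7 and 32 in DSS-treated knockout. Untreated and treated knockout overlapped and both exceeded every WT library, and the interaction was -1.90 ± 0.33 (SE, adjusted p = 0.00675), with a rise of 1.56 in WT from its lower level. Wars, the tryptophanyl-tRNA synthetase, rose by 0.91 in WT and its interaction was -0.65 ± 0.13 (SE, adjusted p = 0.0159). Gbp3 did not pass with 1 library left out, for 3 of the 12 libraries (untreated knockout replicate 3 and DSS-treated WT replicates 1 and 2; adjusted p = 0.0598 to 0.0648). Wars did not pass with 1 library left out, for 5 of the 12 libraries (DSS-treated knockout replicates 1 and 2, untreated knockout replicate 2, DSS-treated WT replicate 1 and untreated WT replicate 2; adjusted p = 0.0511 to 0.0695). Gbp3, Gm12250, Ubd and Wars did not pass with the leukocyte marker covariate (adjusted p = 0.205, 0.0884, 0.103 and 0.16).

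Of 39 goblet cell genes 2 changed in opposite directions (Clca1 and Retnlb), as did 2 of 21 secreted antimicrobial genes (Ang4 and Retnlb). Over all genes the share was 0.216%. Clca1 (ENSMUSG00000028255.6, chr3:145003817-145032776, minus strand), a secreted protease of goblet cell mucus, was measured at 19686, 16423 and 10415 CPM in untreated WT and 7477, 7559 and 7386 in DSS-treated WT. Clca1 stood at 6607, 6534 and 5974 in untreated and 15894, 16174 and 14535 in DSS-treated knockout. It fell in WT and rose in the knockout, and the DSS-treated knockout stood within the range of untreated WT. The statistics were a log2 change under DSS of -1.05 ± 0.16 (SE) in WT (adjusted p = 0.000616) and 1.29 ± 0.16 in the knockout (adjusted p = 0.000291). The interaction of Clca1 was 2.34 ± 0.22 (adjusted p = 5.55e-05). Ang4, an angiogenin-type ribonuclease with antimicrobial activity, was measured at 513, 408 and 175 CPM in untreated WT and 82.6, 119 and 88.7 in DSS-treated WT. Ang4 stood at 65.4, 97 and 96.6 in untreated and 203, 227 and 259.7 in DSS-treated knockout. Untreated WT replicate 3 was the lowest of its group and still above every DSS-treated WT library. The interaction was 3.33 ± 0.42 (SE, adjusted p = 0.000506), from changes of -1.92 in WT and 1.41 in the knockout, and without untreated WT replicate 3 it was 3.66. Retnlb, a goblet cell resistin-like molecule that acts on bacteria, changed by -1.27 in WT and 1.26 in the knockout, with an interaction of 2.53 ± 0.46 (SE, adjusted p = 0.0095).

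Other members of these lists moved in 1 genotype. Muc2, the gel-forming mucin of the colon, was measured at 4797, 5539 and 4191 CPM in untreated WT and 4673, 3958 and 4522 in DSS-treated WT. Muc2 stood at 3409.9, 3569 and 3874 in untreated and 5771, 5974 and 5846 in DSS-treated knockout. WT libraries overlapped, and DSS-treated knockout lay above all other libraries (change 0.70 ± 0.10, adjusted p = 0.000922; interaction 0.84 ± 0.14 (SE, adjusted p = 0.00456)). Itln1, a lectin that binds microbial sugars, was measured at 70.4, 49.1 and 35.4 CPM in untreated WT and 11.4, 15.9 and 14.4 in DSS-treated WT. Itln1 stood at 12.8, 12.8 and 13 in untreated and 18.9, 17.2 and 23.6 in DSS-treated knockout. It was high in untreated WT alone, and the interaction was 2.52 ± 0.34 (SE, adjusted p = 0.00094) from changes of -1.89 in WT and 0.63 in the knockout. Reg4, a lectin of deep crypt secretory and enteroendocrine cells, fell by 2.16 in WT and had a value of 0.09 in the knockout (interaction 2.25 ± 0.33 (SE, adjusted p = 0.00179)). Best2, an anion channel of colonic goblet cells, rose by 1.45 in WT from a level below the knockout's, with an interaction of -1.38 ± 0.24 (SE, adjusted p = 0.00598); with the leukocyte marker covariate it did not pass (adjusted p = 0.0808).

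Over the whole goblet list, 3 of 39 tested members had a positive and 1 a negative interaction (10.3%, beside 1.7% of all genes). The median was 0.28. In WT 3 rose and 3 fell (15.4%, beside 6.3% of all genes), and in the knockout 7 rose and 1 fell (20.5%, beside 3.92%). Of 21 secreted antimicrobial genes, 4 had a positive interaction (Itln1, Reg4, Ang4 and Retnlb) and 0 a negative one, with a median of 0.16. Those 4 were 19% of the list, beside 1.17% of all genes. The sum of the goblet markers Muc2, Fcgbp, Clca1 and Tff3, part of them members of these lists, was 18769 to 25558 CPM in untreated WT, 14451 to 16868 in DSS-treated WT, 13173 to 14699.8 in untreated knockout and 25697 to 30081 in DSS-treated knockout. This sum is without edgeR's scaling. Clca1 had the largest count of the 4 in every library. By edgeR, Fcgbp (1.15, adjusted p = 0.0799) and Tff3 (-0.15, adjusted p = 0.952) did not pass the interaction. Summed over the 39 goblet genes with that scaling, untreated WT (21110 to 33335 CPM) and DSS-treated knockout (30432 to 34197 CPM) overlapped. The median log2 level of the 39 genes overlapped between treatments in WT, at 5.564 to 5.988 untreated and 5.802 to 6.063 under DSS. In the knockout that median was 6.046 to 6.253 untreated and 6.442 to 6.58 under DSS, without overlap. B4galt1, a galactosyltransferase of glycoprotein chains, was the 1 gene that rose in WT and fell in the knockout. It was measured at 172, 179 and 138 CPM in untreated WT and 228, 226 and 207 in DSS-treated WT. B4galt1 stood at 258, 277 and 258 in untreated and 164, 184 and 195 in DSS-treated knockout, and untreated and treated libraries did not overlap in either genotype. Its interaction was -0.98 ± 0.16 (SE, adjusted p = 0.00439); with the leukocyte marker covariate the adjusted p was 0.0677.

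NF-kB target genes had the opposite pattern from the interferon genes: more members rose in WT than in the knockout, and every interaction that passed was negative. Of 54 listed, 38 were tested. In WT 16 rose (42.1%) and 0 fell, and in the knockout 6 rose (15.8%) and 0 fell. Over all genes 2.8% rose in WT and 1.88% in the knockout. The interaction was negative in 8 and positive in 0, beside 0.527% and 1.17% of all genes. The medians were 1.05 in WT, 0.33 in the knockout and -0.46 for the interaction, beside 0.01, 0.02 and -0.01 over all genes. Of 16 chemokine genes, some of them also in that list, 7 rose in WT (43.8%) and 2 in the knockout (12.5%), beside 2.8% and 1.88% of all genes. A negative interaction passed in 3 (Ccl20, Cxcl1 and Cxcl5), 18.8% of the list beside 0.527% of all genes. None of 36 NF-kB pathway components passed the interaction by edgeR, with 3 at an unadjusted p under 0.05 and 1 called by DESeq2. With the leukocyte marker covariate the rises in WT went from 16 to 1 target gene, and 6 targets had a negative interaction.

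Tnf (ENSMUSG00000024401.13, chr17:35199381-35202007, minus strand), the cytokine, was measured at 3.64, 4.1 and 2.47 CPM in untreated WT and 31.3, 30.4 and 32.1 in DSS-treated WT. Tnf stood at 11.6, 15 and 15.9 in untreated and 9.02, 9.79 and 12.3 in DSS-treated knockout. Untreated WT was lowest, DSS-treated WT highest, and the 6 knockout libraries lay between, the 2 treatments overlapping. edgeR gave a log2 change under DSS of 3.19 ± 0.25 (SE) in WT (adjusted p = 1.88e-06) and -0.45 ± 0.23 in the knockout (adjusted p = 0.37). The interaction of Tnf was -3.64 ± 0.34 (adjusted p = 5.54e-05). Nfkbia (ENSMUSG00000021025.7, chr12:55489410-55492647, minus strand), the NF-kB inhibitor IkB-alpha and a direct feedback target, was measured at 138, 128 and 125 CPM in untreated WT and 334, 337 and 303 in DSS-treated WT. Nfkbia stood at 235, 258 and 259 in untreated and 216, 249 and 279 in DSS-treated knockout. Its order of groups was the same as for Tnf, with all knockout libraries between the WT groups. For Nfkbia the test gave a log2 change under DSS of 1.32 ± 0.11 (SE) in WT (adjusted p = 2.49e-06) and -0.01 ± 0.11 in the knockout (adjusted p = 0.972). The interaction of Nfkbia was -1.33 ± 0.15 (adjusted p = 0.000206). Both genes were higher in untreated knockout than in untreated WT, by 2.05 ± 0.25 (adjusted p = 0.000254) and 0.94 ± 0.11 (adjusted p = 0.000134).

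The chemokines Cxcl1 and Ccl20 differed from Tnf in where the knockout stood. Cxcl1, a neutrophil attractant, was measured at 1.02, 0.984 and 1.08 CPM in untreated WT and 9.57, 10 and 9.46 in DSS-treated WT. Cxcl1 stood at 8.75, 13.2 and 8.91 in untreated and 14.9, 16.2 and 11.5 in DSS-treated knockout. Untreated WT stood apart at the low end, and untreated knockout overlapped with DSS-treated WT. The interaction was -2.75 ± 0.41 (SE, adjusted p = 0.00187), with a rise of 3.21 in WT and a value of 0.46 in the knockout that did not pass (adjusted p = 0.417). Ccl20, which attracts CCR6-bearing lymphocytes, was measured at 1.89, 2.79 and 1.55 CPM in untreated WT and 11.7, 9.47 and 8.81 in DSS-treated WT. Ccl20 stood at 21.9, 28.4 and 19.7 in untreated and 20, 19.4 and 17.7 in DSS-treated knockout. Knockout libraries exceeded DSS-treated WT whether treated or not, and the interaction was -2.56 ± 0.36 (SE, adjusted p = 0.0013). Cxcl5 was low everywhere, at 0.291, 1.15 and 0.309 CPM in untreated WT and 9.11, 6 and 5.87 in DSS-treated WT. Untreated WT replicates 1 and 3 lay under the detection floor of those libraries (0.437 and 0.464 CPM). Cxcl5 stood at 2.29, 1.1 and 3.09 in untreated and 1.94, 2.52 and 0.554 in DSS-treated knockout. DSS-treated WT stood above the rest, with an interaction of -3.94 ± 0.93 (SE, adjusted p = 0.0463). Cxcl5 did not pass with 1 library left out, for 10 of the 12 libraries (DSS-treated knockout replicates 1, 2 and 3, untreated knockout replicates 1 and 3, DSS-treated WT replicates 1, 2 and 3 and untreated WT replicates 1 and 3; adjusted p = 0.0511 to 0.154); with the leukocyte marker covariate it did not pass (adjusted p = 0.109). Cd14, the lipopolysaccharide co-receptor, rose by 1.30 in WT with an interaction of -1.05 ± 0.15 (SE, adjusted p = 0.00119). The leukocyte marker sum was higher in treated than in untreated libraries of both genotypes, with no overlap.

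**Figure D4:**
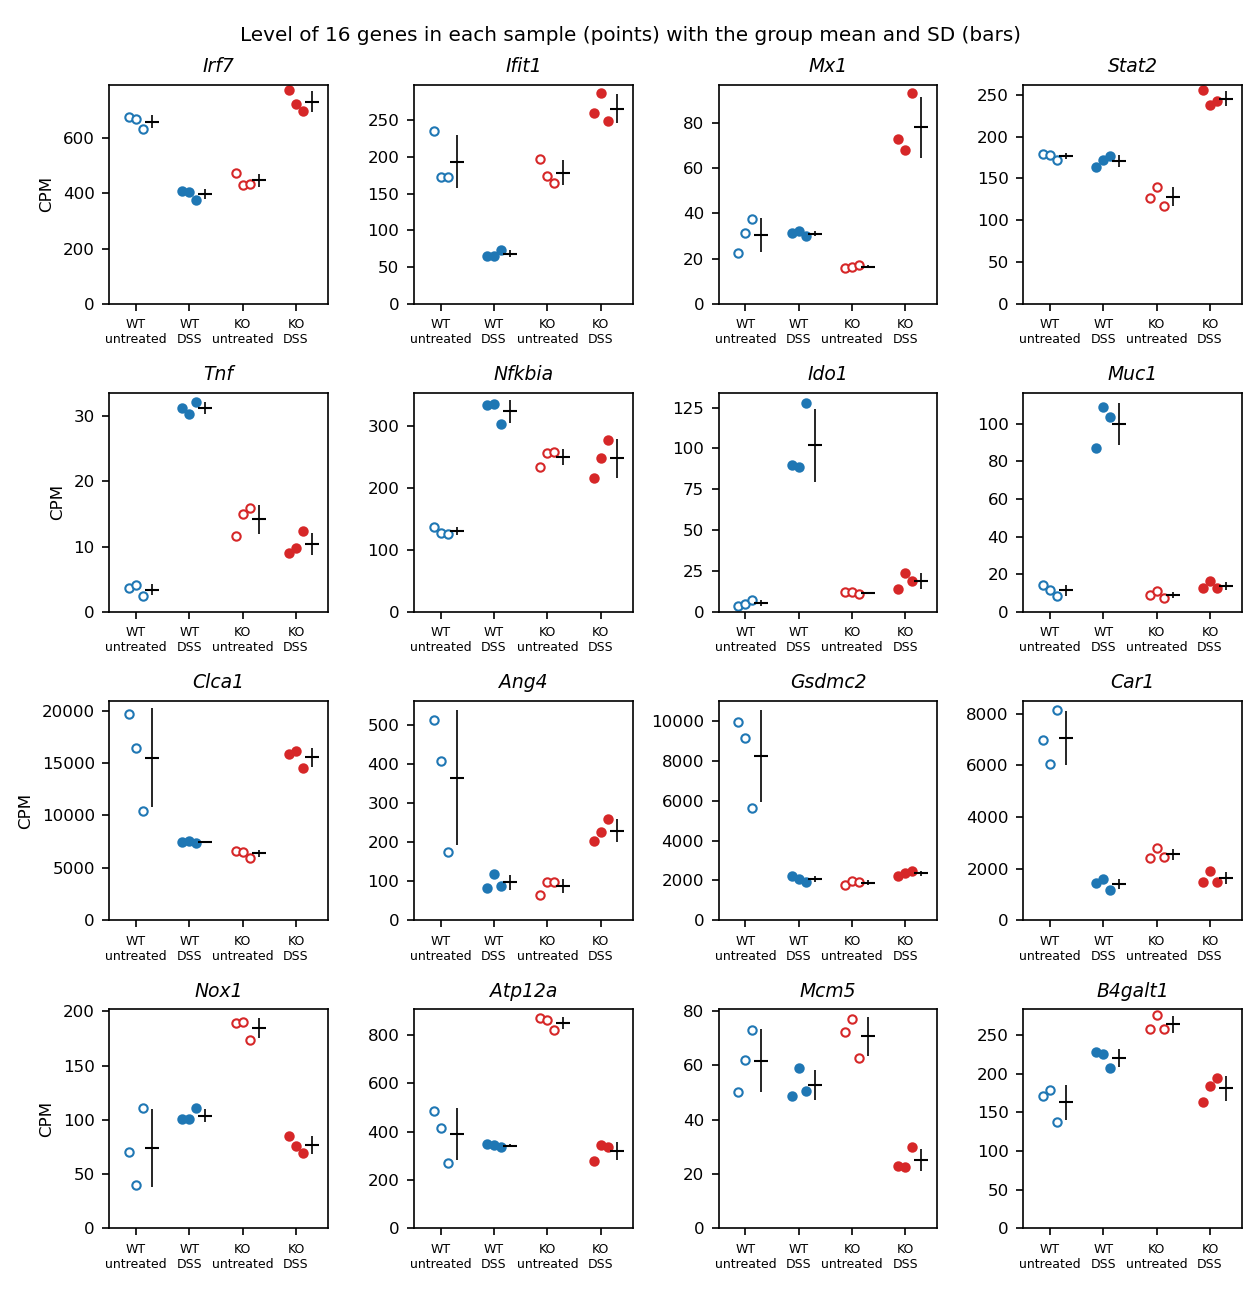
CPM of 16 genes in each of the 12 libraries (points; blue WT, red knockout, open untreated, filled DSS-treated), with the mean and SD of the 3 replicates beside them (bars); each axis starts at 0. The top row rises with DSS in the knockout, the second row in WT, and in the third row untreated WT is high for Gsdmc2 and Car1.

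Searched for the kappa B consensus on both strands, 17 of 29 NF-kB target genes with a promoter in the table held a match (58.6%), beside 8.46% of all promoters, 9.55% of all genes in the table and 12.1% of genes tested. Of the genes that rose in WT and were not called in the knockout, 7 of 27 did, and of those that fell, 2 of 42. In the classes that changed in the knockout and were not called in WT, 3 of 29 that rose and 2 of 7 that fell did. Of genes that fell in WT and rose in the knockout, 2 of 21 held a match. With the same sign in both genotypes, 1 of 10 that rose and 3 of 18 that fell did. The 150 bases before the start of Nfkbia (chr12:55492648-55492797, minus strand), Ccl20 (chr1:83116616-83116765, plus strand) and Cxcl1 (chr5:90891095-90891244, plus strand) are printed to the same rules, with kappa B matches in capitals.
Nfkbia: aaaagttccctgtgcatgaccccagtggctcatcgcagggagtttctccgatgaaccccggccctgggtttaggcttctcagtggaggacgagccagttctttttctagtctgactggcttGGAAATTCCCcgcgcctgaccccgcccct
Ccl20: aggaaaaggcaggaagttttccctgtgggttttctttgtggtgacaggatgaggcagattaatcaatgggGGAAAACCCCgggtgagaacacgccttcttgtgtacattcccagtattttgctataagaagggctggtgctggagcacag
Cxcl1: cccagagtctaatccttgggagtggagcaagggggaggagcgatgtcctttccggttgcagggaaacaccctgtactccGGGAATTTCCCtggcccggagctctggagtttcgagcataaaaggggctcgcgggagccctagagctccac
The match in Cxcl1 is read on both strands, offset by 1 base, and the window of Tnf held none.

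Several genes outside the NF-kB list behaved like Tnf, rising in WT and not called in the knockout. Ido1, which starts the breakdown of tryptophan to kynurenine, was measured at 3.79, 5.09 and 7.26 CPM in untreated WT and 89.6, 88.4 and 128 in DSS-treated WT. Ido1 stood at 12.1, 11.8 and 10.9 in untreated and 14.1, 23.9 and 18.7 in DSS-treated knockout. DSS-treated WT stood far above the other 9 libraries. The fit gave a log2 change under DSS of 4.24 ± 0.27 (SE) in WT (adjusted p = 2.26e-07) and 0.70 ± 0.24 in the knockout (adjusted p = 0.144). The interaction of Ido1 was -3.54 ± 0.36 (adjusted p = 6.76e-05). Muc1, a transmembrane mucin, was measured at 14.3, 11.8 and 8.34 CPM in untreated WT and 87, 109 and 104 in DSS-treated WT. Muc1 stood at 8.89, 10.9 and 7.49 in untreated and 12.7, 16.2 and 12.6 in DSS-treated knockout. Untreated knockout and DSS-treated knockout each overlapped with untreated WT, with a log2 change under DSS of 3.12 ± 0.22 (SE) in WT (adjusted p = 5.35e-07) and 0.61 ± 0.22 in the knockout (adjusted p = 0.169). The interaction of Muc1 was -2.51 ± 0.31 (adjusted p = 0.000408). Ccn1, a matricellular protein, changed by 1.46 in WT and -0.22 in the knockout (interaction -1.68 ± 0.21 (SE, adjusted p = 0.000537)). Plet1, a surface protein of healing colonic epithelium, was lower in every knockout library than in every WT library and rose in WT by 1.16 (interaction -1.18 ± 0.22 (SE, adjusted p = 0.00997)). Pmaip1, a BH3-only death gene, and Ripk3, the necroptosis kinase, had interactions of -1.07 ± 0.19 (SE, adjusted p = 0.00725) and -0.93 ± 0.17 (SE, adjusted p = 0.0095). Adh1, an alcohol dehydrogenase, rose by 1.03 in WT and had an interaction of -0.79 ± 0.14 (SE, adjusted p = 0.00716). Ccnd1, the G1 cyclin, had an interaction of -0.83 ± 0.17 (SE, adjusted p = 0.0156); Ccnd1 did not pass with 1 library left out, for 2 of the 12 libraries (untreated knockout replicate 2 and DSS-treated WT replicate 1; adjusted p = 0.0567 to 0.0644). Plet1, Ripk3 and Ccnd1 did not pass with the leukocyte marker covariate (adjusted p = 0.126, 0.0967 and 0.197).

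A set of inducible genes rose in both genotypes by unequal amounts. Lrg1 (ENSMUSG00000037095.7, chr17:56119678-56122001, minus strand), an acute-phase glycoprotein, was measured at 4.37, 3.61 and 5.72 CPM in untreated WT and 314, 346 and 298 in DSS-treated WT. Lrg1 stood at 1.62, 1.46 and 1.19 in untreated and 9.55, 8.75 and 12.5 in DSS-treated knockout. The rise passed in both genotypes, while DSS-treated knockout stayed more than an order of magnitude below DSS-treated WT. These levels gave a log2 change under DSS of 6.12 ± 0.19 (SE) in WT (adjusted p = 1.54e-10) and 2.85 ± 0.23 in the knockout (adjusted p = 1.7e-05). The interaction of Lrg1 was -3.27 ± 0.33 (adjusted p = 6.76e-05). Lbp, the lipopolysaccharide-binding protein, rose by 3.88 in WT and 1.51 in the knockout (interaction -2.38 ± 0.44 (SE, adjusted p = 0.00967); adjusted p = 0.121 with the leukocyte marker covariate). Of 22 acute-phase and STAT3 target genes, 11 rose in WT (50%) and 9 in the knockout (40.9%), beside 2.8% and 1.88% of all genes. Lrg1 and Lbp were the 2 with a negative interaction (9.09%, beside 0.527% of all genes). Nos2, the inducible nitric oxide synthase, was measured at 4.96, 4.92 and 7.73 CPM in untreated WT and 54.2, 42.9 and 50.6 in DSS-treated WT. Nos2 stood at 20.6, 23.8 and 20.8 in untreated and 43, 55 and 62.1 in DSS-treated knockout. DSS-treated libraries of the 2 genotypes overlapped, whereas untreated knockout was above untreated WT; the interaction was -1.77 ± 0.29 (SE, adjusted p = 0.00456). Tac1, the substance P precursor of enterochromaffin cells, was measured at 3.21, 6.07 and 4.02 CPM in untreated WT and 88.5, 89.7 and 82.5 in DSS-treated WT. Tac1 stood at 4.44, 4.27 and 7.96 in untreated and 10.3, 12.2 and 16.1 in DSS-treated knockout. DSS-treated WT stood apart, with an interaction of -3.09 ± 0.39 (SE, adjusted p = 0.000537). Clca4b changed by 2.71 in WT and 0.71 in the knockout, and 24.8% of its 50-base words occur in Clca4a or other genes. Slc37a2, a sugar-phosphate transporter, rose by 1.67 and 0.57, from a higher untreated level in the knockout. Nr1d1, the clock repressor REV-ERB-alpha, rose by 1.54 and 0.54 (interaction -1.0 ± 0.19 (SE, adjusted p = 0.0119)), and its exons overlap those of Thra.

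Genes that fell in WT and were not called in the knockout were led by Gsdmc2 in order of interaction p. Gsdmc2 (ENSMUSG00000056293.11, chr15:63824346-63845177, minus strand), a gasdermin C family member of differentiated colonocytes, was measured at 9985, 9169 and 5622 CPM in untreated WT and 2194, 2089 and 1893 in DSS-treated WT. Gsdmc2 stood at 1741, 1979 and 1922 in untreated and 2214, 2377 and 2448 in DSS-treated knockout. Untreated WT was high, replicate 3 less so, and the other 9 libraries formed a narrow low band. By edgeR there was a log2 change under DSS of -2.0 ± 0.16 (SE) in WT (adjusted p = 1.92e-06) and 0.32 ± 0.15 in the knockout (adjusted p = 0.334). The interaction of Gsdmc2 was 2.32 ± 0.22 (adjusted p = 5.55e-05). Gsdmc3 and Gsdmc4 had interactions of 1.44 ± 0.19 (SE, adjusted p = 0.000756) and 1.81 ± 0.26 (SE, adjusted p = 0.00133). Between 39% and 51.3% of the 50-base words of these 3 neighbours on chromosome 15 occur in another gene, so they are best read together. Capn13, a calpain protease, was measured at 934, 922 and 591 CPM in untreated WT and 246, 256 and 257 in DSS-treated WT. Capn13 stood at 231, 232 and 239 in untreated and 249, 259.6 and 231 in DSS-treated knockout. As for Gsdmc2, untreated WT alone was high, and the interaction was 1.76 ± 0.20 (SE, adjusted p = 0.000199). Of 39 caspase, gasdermin and necroptosis genes, 4 had a positive interaction and 2 (Pmaip1 and Ripk3) a negative one. Together they were 15.4% of the list, beside 1.7% of all genes. The 4 comprised Gsdmc2, Gsdmc3, Gsdmc4 and Zbp1, the last a nucleic acid sensor named after its value was seen.

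Of 38 colonic ion, water and anion transport genes, 4 had a positive interaction (Slc9a2, Slc9a3, Car1 and Car12) and 2 a negative one (Atp12a and Best2). Those passing were 15.8% of the list, beside 1.7% of all genes. DSS changed 10 of the 38 in each genotype (26.3%, beside 6.3% of all genes in WT and 3.92% in the knockout). In WT 9 fell and 1 rose, and in the knockout 10 fell. Of the 6 that passed the interaction, Slc9a2 and Car12 fell in WT and were not called in the knockout. Abcb1a, outside that list and in the same response class, the efflux pump P-glycoprotein, was measured at 498, 495 and 464 CPM in untreated WT and 286, 218 and 256 in DSS-treated WT. Abcb1a stood at 428, 358 and 365 in untreated and 506, 513 and 408 in DSS-treated knockout. Here DSS-treated WT alone was low, and the interaction was 1.25 ± 0.17 (SE, adjusted p = 0.00094); 17.6% of its 50-base words occur in Abcb1b or other genes. Slc9a2, the sodium-proton exchanger NHE2, changed by -1.19 in WT and -0.25 in the knockout (interaction 0.95 ± 0.17 (SE, adjusted p = 0.00714)), and Car12, a membrane carbonic anhydrase, by -2.16 in WT and -0.64 in the knockout (interaction 1.52 ± 0.27 (SE, adjusted p = 0.00689)). Fn1, fibronectin, was measured at 56.6, 53.6 and 61 CPM in untreated WT and 7.29, 5.33 and 2.77 in DSS-treated WT. Fn1 stood at 16.4, 3.3 and 8.44 in untreated and 8.49, 15.3 and 7.9 in DSS-treated knockout. Untreated WT exceeded every other library, with an interaction of 3.64 ± 0.64 (SE, adjusted p = 0.00714). Slc9a2, Car12 and Fn1 did not pass with the leukocyte marker covariate (adjusted p = 0.0705, 0.12 and 0.0798). Acss1, the mitochondrial acetyl-CoA synthetase, Muc3, a transmembrane mucin, and Nfe2l2, the antioxidant regulator NRF2, had smaller interactions of 0.65 ± 0.14 (SE, adjusted p = 0.0309), 0.55 ± 0.13 (SE, adjusted p = 0.0483) and 0.55 ± 0.13 (SE, adjusted p = 0.049). Acss1 did not pass with 1 library left out, for 8 of the 12 libraries (DSS-treated knockout replicates 1 and 2, untreated knockout replicates 1, 2 and 3 and DSS-treated WT replicates 1, 2 and 3; adjusted p = 0.0569 to 0.113). Muc3 did not pass with 1 library left out, for 9 of the 12 libraries (DSS-treated knockout replicates 1 and 2, untreated knockout replicates 1, 2 and 3, DSS-treated WT replicates 1, 2 and 3 and untreated WT replicate 2; adjusted p = 0.0826 to 0.155). Nfe2l2 did not pass with 1 library left out, for 11 of the 12 libraries (DSS-treated knockout replicates 1, 2 and 3, untreated knockout replicates 1, 2 and 3, DSS-treated WT replicates 1, 2 and 3 and untreated WT replicates 1 and 2; adjusted p = 0.0729 to 0.161).

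The 21 genes that fell in both genotypes with unequal size all fell further in WT; 3 belong to the brush border list and 2 to the ion and water transport list. Pla2g4c (ENSMUSG00000033847.14, chr7:13324655-13360672, plus strand), a cytosolic phospholipase A2, was measured at 2339.9, 1959.6 and 1339 CPM in untreated WT and 119.7, 103 and 121 in DSS-treated WT. Pla2g4c stood at 241, 228 and 215 in untreated and 109, 126 and 102 in DSS-treated knockout. DSS-treated libraries of the 2 genotypes overlapped at the low end, and untreated knockout was already well below untreated WT. The quasi-likelihood test gave a log2 change under DSS of -4.04 ± 0.18 (SE) in WT (adjusted p = 5.54e-09) and -1.02 ± 0.16 in the knockout (adjusted p = 0.00246). The interaction of Pla2g4c was 3.02 ± 0.23 (adjusted p = 1.43e-05). Car1, the cytosolic carbonic anhydrase of colonocytes, was measured at 6994, 6062 and 8149 CPM in untreated WT and 1432, 1578 and 1177 in DSS-treated WT. Car1 stood at 2403, 2809 and 2444 in untreated and 1495, 1898 and 1484 in DSS-treated knockout. The arrangement was the same, with an interaction of 1.69 ± 0.19 (SE, adjusted p = 0.000199). Slc9a3, the sodium-proton exchanger NHE3, was measured at 135, 125 and 119 CPM in untreated WT and 10.3, 12 and 9.13 in DSS-treated WT. Slc9a3 stood at 92.8, 94.8 and 82.5 in untreated and 17, 17.1 and 15.4 in DSS-treated knockout. It fell steeply in both genotypes and the interaction was 1.13 ± 0.20 (SE, adjusted p = 0.00675).

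Cyp2c55, a cytochrome P450, fell by 2.77 in WT and 0.74 in the knockout. Dpep1, a brush border dipeptidase, changed by -2.88 in WT and -1.06 in the knockout. Emp1, a tetraspan membrane protein, changed by -2.86 in WT and -1.26 in the knockout. Sptssb, a subunit of the first enzyme of sphingolipid synthesis, changed by -2.78 in WT and -0.95 in the knockout. Their interactions were 2.03 ± 0.19 (SE, adjusted p = 5.67e-05), 1.82 ± 0.19 (SE, adjusted p = 7.59e-05), 1.60 ± 0.18 (SE, adjusted p = 0.000211) and 1.83 ± 0.21 (SE, adjusted p = 0.000204). Tmigd1, an adhesion protein of microvilli, Alpi, the intestinal alkaline phosphatase, and Ceacam1, an apical adhesion molecule, were the 3 of 40 brush border genes with a positive interaction (1.73 ± 0.25 (SE, adjusted p = 0.00133), 1.89 ± 0.40 (SE, adjusted p = 0.025) and 0.61 ± 0.11 (SE, adjusted p = 0.0114)); none was negative. Those 3 were 7.5% of the list, beside 1.17% of all genes with a positive interaction. That list fell in 16 members in WT (40%) and 7 in the knockout (17.5%), beside 3.5% and 2.04% of all genes. A difference between those counts was not itself tested. Hsd3b3 and Cyp2c65, enzymes of steroid and lipid metabolism, had interactions of 0.89 ± 0.15 (SE, adjusted p = 0.00467) and 1.10 ± 0.20 (SE, adjusted p = 0.01); with Cyp2c55, Abcb1a and Ugt2b34 (the last named after its value was seen) they were the 5 of 61 xenobiotic and steroid genes with a positive interaction, and Adh1 was the 1 with a negative. Genes passing the interaction were 9.84% of the xenobiotic and steroid list, beside 1.7% of all genes. Clca4a, of which 37.1% of 50-base words are shared, and Prom1, a membrane protein of crypt cells, had interactions of 2.03 ± 0.34 (SE, adjusted p = 0.00476) and 0.82 ± 0.19 (SE, adjusted p = 0.0355). Alpi did not pass with 1 library left out, for 8 of the 12 libraries (DSS-treated knockout replicates 1 and 2, untreated knockout replicates 1 and 3, DSS-treated WT replicates 1 and 3 and untreated WT replicates 1 and 2; adjusted p = 0.0531 to 0.0773). Prom1 did not pass with 1 library left out, for 7 of the 12 libraries (DSS-treated knockout replicates 1 and 2, untreated knockout replicates 1 and 3, DSS-treated WT replicates 1 and 2 and untreated WT replicate 1; adjusted p = 0.0775 to 0.121). Alpi, Cyp2c65 and Prom1 did not pass with the leukocyte marker covariate (adjusted p = 0.121, 0.172 and 0.232).

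Falls in the knockout that were not called in WT were fewer, 10 genes, and included ion transport, oxidant, replication and class II genes. Atp12a (ENSMUSG00000022229.2, chr14:56365068-56388550, plus strand), the colonic proton-potassium pump, was measured at 484, 416 and 271 CPM in untreated WT and 347, 342 and 336 in DSS-treated WT. Atp12a stood at 869, 859.5 and 821 in untreated and 278, 345 and 337 in DSS-treated knockout. Untreated knockout was high and the other 9 libraries overlapped, giving a log2 change under DSS of -0.19 ± 0.16 (SE) in WT (adjusted p = 0.632) and -1.41 ± 0.16 in the knockout (adjusted p = 0.000181). The interaction of Atp12a was -1.22 ± 0.22 (adjusted p = 0.00978). Nox1, the NADPH oxidase of colonic epithelium, was measured at 70.5, 40.4 and 111 CPM in untreated WT and 101, 100.4 and 111 in DSS-treated WT. Nox1 stood at 189.7, 191 and 174 in untreated and 85.6, 75.9 and 69 in DSS-treated knockout. Untreated knockout was again the high group, and the interaction was -1.75 ± 0.34 (SE, adjusted p = 0.0138); exons of Nox1 overlap those of Cstf2. Prdx6, a peroxiredoxin, changed by 0.29 in WT and -0.65 in the knockout (interaction -0.93 ± 0.18 (SE, adjusted p = 0.0117)). Xlr3b was measured at 3.21, 4.27 and 3.4 CPM in untreated WT and 7.44, 7.2 and 9.95 in DSS-treated WT. Xlr3b stood at 15.9, 14.4 and 12.5 in untreated and 1.59, 3.41 and 0 in DSS-treated knockout, where the 0 lies under the floor, and 56.5% of its 50-base words occur in Xlr3a or other genes; its interaction was -4.27 ± 0.84 (SE, adjusted p = 0.0145). Atp12a and Prdx6 did not pass with the leukocyte marker covariate (adjusted p = 0.145 and 0.174).

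Mcm5 (ENSMUSG00000005410.5, chr8:75109569-75128439, plus strand), a subunit of the replicative helicase, was measured at 50, 62 and 73.1 CPM in untreated WT and 48.7, 59.1 and 50.6 in DSS-treated WT. Mcm5 stood at 72.2, 76.9 and 62.9 in untreated and 22.8, 22.7 and 29.9 in DSS-treated knockout. DSS-treated knockout was the low group. Untreated WT overlapped with DSS-treated WT and with untreated knockout, and untreated knockout lay above DSS-treated WT. The interaction was -1.26 ± 0.24 (SE, adjusted p = 0.0123), with changes of -0.22 in WT and -1.49 in the knockout. Mcm6, another subunit, had an interaction of -1.06 ± 0.25 (SE, adjusted p = 0.0483). Of 54 DNA replication genes these were the 2 that passed the interaction (3.7%, beside 1.7% of all genes). In that list 24 fell in the knockout (44.4%) and 3 in WT (5.56%), beside 2.04% and 3.5% of all genes. There were 48 negative interaction values, with a median of -0.53. Of 59 mitosis genes 20 fell in the knockout (33.9%, beside 2.04% of all genes) and 0 in WT (16 at an unadjusted p under 0.05 and 5 by DESeq2). None passed the interaction by edgeR or DESeq2, with 12 at an unadjusted p under 0.05, 54 negative values and a median of -0.36. Untreated WT replicate 3 stood above the rest of its group for both lists, with summed levels of 2400 CPM for DNA replication against 1805 and 1619, and of 3542 CPM for mitosis against 2534 and 2320. Without it 7 replication genes and 6 mitosis genes had a negative interaction, and 0 fell in WT in either list. Over all alternatives those interaction counts ran from 1 to 7 and from 0 to 6. Leaving out each knockout library in turn, 13 to 18 replication genes and 7 to 11 mitosis genes fell in the knockout, and with the leukocyte marker covariate 0 did. Cdk1, the mitotic kinase, had an interaction of -0.57 ± 0.19 (SE, adjusted p = 0.222) and Top2a, a topoisomerase of dividing cells, one of -0.34 ± 0.21 (SE, adjusted p = 0.647). Mcm6 did not pass with 1 library left out, for 10 of the 12 libraries (DSS-treated knockout replicates 2 and 3, untreated knockout replicates 1, 2 and 3, DSS-treated WT replicates 1, 2 and 3 and untreated WT replicates 1 and 2; adjusted p = 0.0716 to 0.131); Mcm5 did not pass with the leukocyte marker covariate (adjusted p = 0.111).

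Class II antigen presentation genes had 5 negative and 0 positive interactions among 16 tested, with a median of -0.14. Those 5 were 31.2% of the list, beside 0.527% of all genes. H2-Aa, a class II alpha chain, was measured at 483, 421 and 430.2 CPM in untreated WT and 511, 537 and 569.8 in DSS-treated WT. H2-Aa stood at 655, 893 and 777 in untreated and 389.6, 544 and 511 in DSS-treated knockout. Untreated knockout was the highest group, and DSS-treated knockout overlapped with both WT groups. The interaction was -0.96 ± 0.19 (SE, adjusted p = 0.0128), with changes of 0.28 in WT and -0.69 in the knockout. H2-Ab1 fell in the knockout as H2-Aa did, H2-DMa and H2-DMb1 rose in WT and were not called in the knockout, and H2-Eb1 passed neither DSS contrast. H2-Ab1 and H2-Eb1, beta chains, and H2-DMa and H2-DMb1, which load peptide, had interactions of -0.84 ± 0.18 (SE, adjusted p = 0.0253), -0.95 ± 0.20 (SE, adjusted p = 0.0226), -0.93 ± 0.19 (SE, adjusted p = 0.0181) and -0.67 ± 0.16 (SE, adjusted p = 0.0434). H2-Ab1 did not pass with 1 library left out, for 7 of the 12 libraries (DSS-treated knockout replicates 1 and 3, untreated knockout replicates 2 and 3, DSS-treated WT replicate 3 and untreated WT replicates 1 and 2; adjusted p = 0.0509 to 0.0781). H2-Eb1 did not pass with 1 library left out, for 8 of the 12 libraries (DSS-treated knockout replicate 1, untreated knockout replicates 2 and 3, DSS-treated WT replicates 1, 2 and 3 and untreated WT replicates 1 and 2; adjusted p = 0.0504 to 0.0762). H2-DMa did not pass with 1 library left out, for 6 of the 12 libraries (DSS-treated knockout replicate 1, untreated knockout replicates 2 and 3, DSS-treated WT replicates 2 and 3 and untreated WT replicate 2; adjusted p = 0.0536 to 0.0741). H2-DMb1 did not pass with 1 library left out, for 10 of the 12 libraries (DSS-treated knockout replicates 1, 2 and 3, untreated knockout replicates 1, 2 and 3, DSS-treated WT replicates 2 and 3 and untreated WT replicates 1 and 2; adjusted p = 0.0511 to 0.135). None of these 5 passed with the leukocyte marker covariate (adjusted p = 0.0514 to 0.168). The sum of 5 B cell and plasma cell markers was 3.16 to 8.91 CPM in untreated and 10.3 to 15.6 in DSS-treated WT, and 1.73 to 5.24 in untreated and 4.29 to 5.6 in DSS-treated knockout. For 6 myeloid markers the sums were 3.7 to 6.17, 17.7 to 25.2, 12.9 to 13.7 and 39.2 to 55.2 CPM in the same order. Both sums were higher under DSS in WT with no overlap, as the myeloid sum was in the knockout, and their part in the class II result was not tested. None of 29 class I genes passed the interaction by edgeR, with 7 at an unadjusted p under 0.05 and 1 called by DESeq2, with a median of -0.02.

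Hspa1a, the inducible HSP70 chaperone, was measured at 38.9, 40.2 and 45.6 CPM in untreated WT and 45.9, 47.1 and 62 in DSS-treated WT. Hspa1a stood at 4.71, 4.52 and 3.09 in untreated and 20.7, 20 and 17 in DSS-treated knockout. WT libraries exceeded every knockout library, and DSS raised the knockout by 2.23 ± 0.21 (adjusted p = 3.55e-05) with an interaction of 1.91 ± 0.28 (SE, adjusted p = 0.00173). Of its 50-base words 60.3% occur in Hspa1b or other genes. It was the 1 of 24 heat-shock genes that passed (4.17%, beside 1.7% of all genes). Gcnt1, a branching enzyme of mucin-type glycans, Mptx1, a mucosal pentraxin, and Ifi27l2a, an interferon-stimulated gene, passed the interaction and neither DSS contrast, at -1.59 ± 0.33 (SE, adjusted p = 0.0181), 1.66 ± 0.39 (SE, adjusted p = 0.0434) and 2.18 ± 0.48 (SE, adjusted p = 0.0316). Gcnt1 did not pass with 1 library left out, for 4 of the 12 libraries (DSS-treated knockout replicates 2 and 3, untreated knockout replicate 1 and DSS-treated WT replicate 3; adjusted p = 0.0573 to 0.0601). Mptx1 did not pass with 1 library left out, for 11 of the 12 libraries (DSS-treated knockout replicates 1, 2 and 3, untreated knockout replicates 1, 2 and 3, DSS-treated WT replicates 1, 2 and 3 and untreated WT replicates 1 and 2; adjusted p = 0.0532 to 0.141). Ifi27l2a did not pass with 1 library left out, for 8 of the 12 libraries (DSS-treated knockout replicates 2 and 3, untreated knockout replicates 1 and 2, DSS-treated WT replicates 1 and 3 and untreated WT replicates 1 and 2; adjusted p = 0.0631 to 0.0987). Gcnt1 and Ifi27l2a did not pass with the leukocyte marker covariate (adjusted p = 0.152 and 0.0642).

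**Figure D5:**
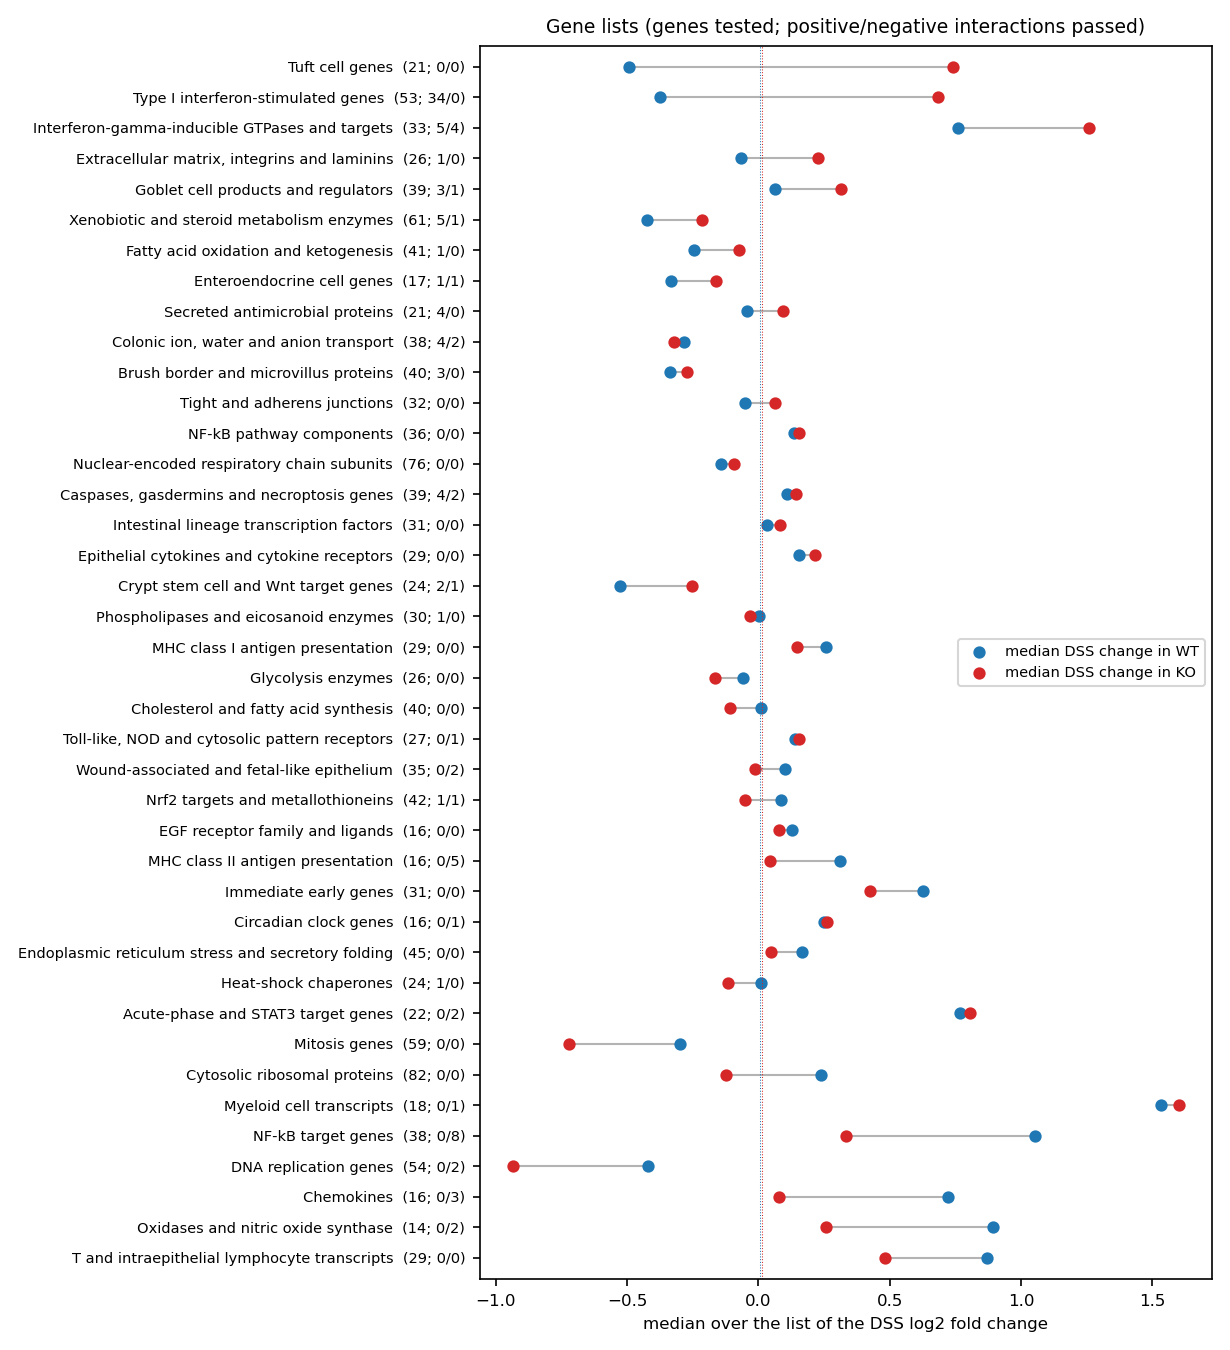
Median log2 change under DSS in WT (blue) and in the knockout (red) for each gene list with at least 10 genes tested, ordered by the median interaction; in brackets, genes tested and the numbers of positive and negative interactions that passed. Type I interferon-stimulated genes carry the most passing interactions (34), and lists of similar median shift, such as tuft cell genes, carry none.

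Some lists had shifted medians and no gene past the threshold. Of 21 tuft cell genes, markers of the chemosensory cells, 20 had a positive interaction value and 0 passed by edgeR, with 6 at an unadjusted p under 0.05, 1 called by DESeq2 and a median of 1.36. Avil, an actin-binding protein of tuft cells, was measured at 2.48, 5.25 and 12.5 CPM in untreated WT and 2.89, 1.73 and 2.28 in DSS-treated WT. Avil stood at 1.62, 4.03 and 2.61 in untreated and 5.3, 2.97 and 3.46 in DSS-treated knockout. Untreated WT replicate 3 stood above the other 11 libraries, and the interaction was 2.04 ± 0.79 (SE, adjusted p = 0.335). Of 82 cytosolic ribosomal protein genes 78 had a negative value and none passed by edgeR or DESeq2 (1 at an unadjusted p under 0.05), with medians of 0.24 in WT, -0.12 in the knockout and -0.38 for the interaction. That last median ran from -0.588 to -0.025 over the alternatives. Replicates lay far apart, with ribosomal sums of 6764, 9876 and 9198 CPM in untreated knockout. Of 29 T and intraepithelial lymphocyte transcripts 24 had a negative value and none passed by edgeR or DESeq2 (2 at an unadjusted p under 0.05), with a median of -0.84; Rgs1 had an interaction of -0.84 ± 0.36 (SE, adjusted p = 0.409). Over the alternatives up to 2 tuft, 1 ribosomal and 1 lymphocyte gene passed. These p-values do not show that such genes respond alike. Immediate early genes rose in both genotypes, 13 of 31 in WT (41.9%) and 8 in the knockout (25.8%), beside 2.8% and 1.88% of all genes. In that list 0 interactions passed by edgeR, with 6 at an unadjusted p under 0.05, 2 called by DESeq2 and up to 4 over the alternatives. Junb and Zfp36 had interactions of -0.36 ± 0.11 (SE, adjusted p = 0.159) and -0.44 ± 0.14 (SE, adjusted p = 0.2). Fatty acid oxidation genes had 32 of 41 positive values and 1 that passed (Acss1, 2.44% of the list beside 1.7% of all genes). In that list 11 fell in WT (26.8%) against 2 in the knockout (4.88%), beside 3.5% and 2.04% of all genes. No nuclear-encoded respiratory chain subunit (76 tested) passed the interaction or either DSS contrast by edgeR or DESeq2, with 0 at an unadjusted p under 0.05 for the interaction, 3 for DSS in WT and 0 for DSS in the knockout.

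For several named genes the counts also carry a limit of assignment. The share of 50-base words found in another gene was 30.4% for Ceacam1, 22.7% for H2-DMb1, 20.6% for Cyp2c65, 17.9% for Mptx1 and 13.4% for Car1. Without strand, reads in exons shared with an overlapping gene cannot be told apart for Usp18, H2-DMa, Atp12a, Ccnd1, Fn1, Plet1, Hsd3b3 and Adh1.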

How the data were processed

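RNA from colonic epithelial cells of 12 samples was sequenced as SMART-seq2 libraries without strand or molecular identifiers, per the labels' protocols. The deposited values are raw read counts per gene, one table per sample; per the submitters' processing notes STAR 2.5.2b and featureCounts 1.5.0 were used with GRCm38 (mm10). Of 46517 gene IDs, 46005 matched a symbol, and mitochondrially encoded genes were listed at 0. Totals ran from 5595909 to 8117740 counts.

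The counts were fitted as deposited with edgeR 4.0.16 in R 4.3.3 (low-count filter, TMM scaling, 1 coefficient per group over all 12 samples, quasi-likelihood F tests, Benjamini-Hochberg adjustment over 12522 genes, threshold 0.05), and the script was tested on simulated data. SEs are the log2 change divided by the square root of F. A prior count of 2 was used for log2 CPM levels and not for the fitted log2 changes. A gene passing the interaction was classed by which DSS contrasts passed. Named genes are Nfkb2, up to 6 per class and direction with the smallest interaction p (mean log2 CPM of at least 2, no placeholder symbols), and up to 5 passing members per gene list or, where fewer than 2 passed, up to 2 with the smallest DSS p. The members and the 45 lists were chosen with earlier results of these data known. Lists are described by counts and medians without a test.

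Same-numbered samples deviated together in the knockout (r = 0.204, 0.106 and 0.127 for untreated against DSS) and not in every WT pair (0.0138, 0.12 and 0.128). Same-numbered untreated and DSS samples carry consecutive library numbers in both genotypes, and the labels do not say what else the replicate numbers mark. Replicates 2 and 3 had similar correlations in the 2 genotypes. Whether pairing differed between the genotypes was not tested. Alternatives were DESeq2 1.42.0 (its size factors, and its Wald test), no filter, at least 10 counts in 6 samples, replicate blocks, a leukocyte marker covariate, each genotype fitted alone, and leaving out each library.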

Additional observations from a re-analysis of the deposited data

Results flagged for a closer look

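The DSS change differed between WT and knockout in 213 genes by the interaction term itself, and the genes named in the report that passed are listed here for that reason with their interaction values, the log2 change in the knockout minus that in WT.

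Among genes that fell in WT and rose in the knockout the values were Slfn4 2.09, Irf7 1.45, Cmpk2 1.82, Rsad2 2.53, Ifit1 2.08, Clca1 2.34, Ifit3 1.82, Ang4 3.33 and Retnlb 2.53. The gene with the reverse pattern was B4galt1 -0.98. Among genes that rose in the knockout and were not called in WT they were Ifit2 1.22, Usp18 1.56, Mx1 2.22, Oas2 1.59, Mx2 2.58, Stat2 0.99, Hspa1a 1.91, Muc2 0.84 and Gm12250 0.97, and among those that fell there they were Atp12a -1.22, Prdx6 -0.93, Mcm5 -1.26, H2-Aa -0.96, Nox1 -1.75, Xlr3b -4.27, H2-Ab1 -0.84 and Mcm6 -1.06.

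Among genes that rose in WT and were not called in the knockout they were Tnf -3.64, Ido1 -3.54, Nfkbia -1.33, Muc1 -2.51, Ccn1 -1.68, Cd14 -1.05, Ccl20 -2.56, Cxcl1 -2.75, Best2 -1.38, Ubd -1.90, Adh1 -0.79, Pmaip1 -1.07, Ripk3 -0.93, Plet1 -1.18, Ccnd1 -0.83, Wars -0.65, H2-DMa -0.93, H2-DMb1 -0.67 and Cxcl5 -3.94. Among those that fell in WT they were Gsdmc2 2.32, Capn13 1.76, Gsdmc3 1.44, Abcb1a 1.25, Itln1 2.52, Gsdmc4 1.81, Reg4 2.25, Car12 1.52, Slc9a2 0.95, Fn1 3.64, Acss1 0.65, Muc3 0.55 and Nfe2l2 0.55.

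Among genes that rose in both genotypes by unequal amounts the values were Lrg1 -3.27, Clca4b -2.0, Tac1 -3.09, Slc37a2 -1.09, Nos2 -1.77, Lbp -2.38, Nr1d1 -1.0 and Gbp3 1.00, and among those that fell in both they were Pla2g4c 3.02, Cyp2c55 2.03, Dpep1 1.82, Car1 1.69, Sptssb 1.83, Emp1 1.60, Tmigd1 1.73, Hsd3b3 0.89, Clca4a 2.03, Slc9a3 1.13, Cyp2c65 1.10, Ceacam1 0.61, Alpi 1.89 and Prom1 0.82. With neither DSS change called the values were Gcnt1 -1.59, H2-Eb1 -0.95, Ifi27l2a 2.18 and Mptx1 1.66. All 85 kept their sign under every alternative that gave a value, and 53 also kept the call.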

How the results depend on the processing

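By DESeq2's Wald test the interaction passed in 360 genes, 231 positive and 129 negative, DSS in the knockout in 800, and 161 genes were in the WT class, 88 in the knockout class and 19 in the class with neither DSS change. Without the filter on low counts those values were 356 genes, 140 of them negative, 776 for DSS in the knockout, and 150, 94 and 23 for the classes. With the leukocyte marker covariate 39 interactions were negative, DSS passed in 42 genes in WT and 34 in the knockout, and the classes held 21 (WT), 4 (knockout), 0 (opposite), 6 (same) and 111 (neither). Each genotype fitted alone gave 453 genes for DSS in WT against 580 in the knockout, the reverse of the order with all groups, with 76, 67 and 17 genes in the WT, knockout and neither classes. That class held 8 genes with at least 10 counts in 6 samples and 9 with the replicate block within genotype. The replicate block gave 186 interaction genes, 181 of them among the 213, and the block within genotype 263, with 205 shared; neither moved another count by over 1.5 times. Leaving out 1 library gave 152 to 350 interaction genes, 107 to 230 positive and 44 to 120 negative, 483 to 958 for DSS in WT and 235 to 710 in the knockout, and classes of 61 to 150 (WT), 32 to 84 (knockout), 11 to 40 (opposite), 16 to 65 (same) and 6 to 12 (neither). Interferon-stimulated genes passing numbered 27 to 41 and NF-kB targets 6 to 9 over all alternatives. A change of sign was counted only for list medians larger than the within-group SD of that list's level. Those were interferon-gamma genes with the covariate (-0.000548), transmembrane mucins without untreated WT replicate 3, junctions without untreated WT replicate 1 and endothelial and neural transcripts without untreated WT replicate 2. Smaller medians crossed 0 in further lists, such as enteroendocrine genes (-0.109 to 0.352 over the alternatives) and immediate early genes (-0.327 to 0.028). Over the left-out libraries the median of the interaction ranged from -0.0853 to 0.4346 for transmembrane mucins, from -0.000426 to 0.1651 for junctions and from -0.972 to 1.125 for endothelial and neural transcripts. The cause of these differences was not tested. With 3 libraries a group, and 0.356 to 0.53 CPM as the floor, small changes of low genes were not detectable.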
